A study of Mus musculus with 6 samples.

Results

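Carbonic anhydrases are zinc enzymes that interconvert carbon dioxide and water with bicarbonate and a proton. In the eye they are best known from the ciliary epithelium, where the bicarbonate they supply drives secretion of aqueous humour, and blocking them with drugs lowers intraocular pressure. In the retina, carbonic anhydrases of Mueller glia and pigment epithelium help to clear the carbon dioxide that photoreceptors release. Measured here were 9 genes of this family, chosen by their symbols among the 22692 genes listed: the cytosolic enzymes Car2, Car3 and Car13, the membrane-anchored enzymes Car4, Car12 and Car14, and the carbonic anhydrase-related proteins Car8, Car10 and Car11, which lack catalytic activity. All 9 were found in each table. The other 7 family genes in the tables, Car1, Car5a, Car5b, Car6, Car7, Car9 and Car15, are given beside them.

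RNA came from whole eyes of C57BL/6J mice, an inbred laboratory strain, taken 9.0 h or 1.5 h after light onset. Each of the 3 libraries per time pooled total RNA of 5 females aged 4 weeks, and poly(A) RNA was sequenced from random-primed cDNA. Nothing in the labels says that libraries of a time came from separate mice, so p-values reflect the variation among libraries, part of which could be technical. Values are RPKM, read numbers divided by gene model length and library size, so levels of different genes can be set side by side. Because whole eyes were used, fewer cells of a type and less RNA per cell cannot be told apart.

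The libraries held an estimated 24040000 to 31780000 reads at 9.0 h and 12750000 to 28990000 at 1.5 h. Marker genes of lens, rods, corneal epithelium and pigment epithelium were present in every library. In 1.5 h replicate 1, the summed markers of several tissues were the lowest of the 6 libraries. These were lens, skeletal muscle, fat, blood, myelin, Mueller glia, pigment epithelium and endothelium. The myelin sum was 17.8 RPKM there, against 29.4 to 193.2 RPKM elsewhere. The margin was small for pigment epithelium (782.2 against 787.1 RPKM in 9.0 h replicate 1) and endothelium (89.51 against 89.63 RPKM in 9.0 h replicate 2). The sums for rods, corneal epithelium and inner retinal neurons were not the lowest there. The RPKM of all genes in 1.5 h replicate 1 also had the lowest sum, 393400, against 484200 to 546800 in the other 5. In 1.5 h replicate 3, 4 of 4 Y-linked genes looked at were above 0 although the labels give females, and 0 of 4 were in the other 5 libraries.

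No carbonic anhydrase passed the test for a difference between 9.0 h and 1.5 h. The test was limma on log2(RPKM + 0.1) over 13490 genes that reached 1 RPKM in 3 or more libraries, at a Benjamini-Hochberg adjusted p of 0.05. It called 0.222% of all tested genes (0.148% as higher and 0.0741% as lower at 9.0 h), and 0 of the 8 members that entered it. The share of all genes depended on the libraries used: 9.23% were called without 1.5 h replicate 1, and 0.0148% to 0.452% without any other single library. Members called were 0 of 8 in each of these fits. Car4 fell under the filter. At an unadjusted p of 0.05, 0 members passed, against 11.1% of all tested genes. Libraries of the 2 times did not overlap for Car12, lower at 9.0 h, and, outside the 9, for Car9, higher at 9.0 h. Of all tested genes 18.2% had no overlap, 8.41% as lower and 9.78% as higher at 9.0 h. Median log2 fold changes were -0.06 over the 8 tested members and -0.003 over all tested genes.

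Promoter sequence is shown for 3 members whose place in the genome or whose values make it of interest. Car12 is the member whose libraries did not overlap between the times, as was the case for 18.2% of all tested genes. Car11 and Car14 lie near clock-controlled genes that were called higher at 9.0 h: in the GENCODE M21 annotation the next coding gene after Car11 is Dbp, a clock-controlled transcription factor, and Ciart, a clock repressor listed in the files as Gm129, is the third coding gene from Car14. These neighbours were named with their values known. Each window runs from 250 bases before to 50 bases after a gene start in RefSeq, build GRCm38.p6, which is not the mm9 build of the files. It is written 5′ to 3′ on the gene's strand. Capitals mark CACGTG, the E-box bound by clock activators. Also searched, on both strands, was TTATGTAA, the D-box bound by Dbp and its relatives.
Car12, chr9:66713436-66713735, plus strand: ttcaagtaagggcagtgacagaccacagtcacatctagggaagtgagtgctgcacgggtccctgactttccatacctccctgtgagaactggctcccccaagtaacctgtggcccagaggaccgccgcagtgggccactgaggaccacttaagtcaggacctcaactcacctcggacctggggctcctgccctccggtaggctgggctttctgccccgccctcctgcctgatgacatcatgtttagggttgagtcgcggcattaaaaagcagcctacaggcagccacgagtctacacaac
Car11, chr7:45699554-45699853, plus strand, the first of 2 annotated starts: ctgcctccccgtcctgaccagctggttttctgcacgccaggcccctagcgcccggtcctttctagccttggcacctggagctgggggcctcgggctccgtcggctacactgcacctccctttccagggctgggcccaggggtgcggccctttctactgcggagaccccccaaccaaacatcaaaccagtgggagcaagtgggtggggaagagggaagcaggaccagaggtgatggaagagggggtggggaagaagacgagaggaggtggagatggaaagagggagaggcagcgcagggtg
Dbp, chr7:45704997-45705296, plus strand: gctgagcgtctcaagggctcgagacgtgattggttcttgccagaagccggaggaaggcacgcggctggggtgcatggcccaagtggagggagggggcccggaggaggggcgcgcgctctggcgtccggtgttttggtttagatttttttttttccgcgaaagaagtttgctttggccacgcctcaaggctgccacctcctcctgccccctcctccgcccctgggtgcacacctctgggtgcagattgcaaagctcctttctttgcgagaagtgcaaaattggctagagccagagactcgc
Car14, chr3:95904636-95904935, minus strand: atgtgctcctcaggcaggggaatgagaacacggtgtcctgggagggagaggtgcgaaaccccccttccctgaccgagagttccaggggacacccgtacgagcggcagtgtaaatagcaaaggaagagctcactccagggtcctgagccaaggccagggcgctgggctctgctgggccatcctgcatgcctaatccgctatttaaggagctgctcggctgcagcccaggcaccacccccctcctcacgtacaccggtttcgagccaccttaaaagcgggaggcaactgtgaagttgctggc
Ciart, chr3:95882179-95882478, minus strand: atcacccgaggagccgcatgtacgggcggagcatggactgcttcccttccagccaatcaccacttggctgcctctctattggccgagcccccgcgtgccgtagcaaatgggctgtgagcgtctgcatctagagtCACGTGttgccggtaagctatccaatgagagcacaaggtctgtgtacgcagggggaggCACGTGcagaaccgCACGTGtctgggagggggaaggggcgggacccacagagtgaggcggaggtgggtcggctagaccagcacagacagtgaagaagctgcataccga
The Ciart window held 3 E-boxes, and no E-box was in the Car12, Car11, Dbp or Car14 windows or in those of the members Car4 and Car10. No D-box was in any of these windows. Of 32851 windows of the same length, 7.15% held an E-box and 0.938% a D-box. The table of windows matched 5 of the 9 members, and Car2, Car3, Car8 and Car13 are named only. A match is a description of letters and not a tested site.

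Levels spanned a wide range within the family. Car2 was highest, with a mean of 148.3 RPKM over the 6 libraries, and its lowest library lay above the highest library of any other carbonic anhydrase. Car3 at 58.8 RPKM and Car14 at 50.8 RPKM followed, and their library values overlapped. Together these 3 genes made up 81.8% to 82.1% of the summed RPKM of all 16 family genes at 9.0 h and 77.5% to 83.1% at 1.5 h. Next came Car10 at 13.2, Car11 at 11.7 and Car12 at 10.3 RPKM, neighbours whose library values overlapped. Car8 followed at 7.48 RPKM, below every library of Car12. Car13 at 2.34 RPKM stood among the other family genes Car5b, Car6, Car15, Car7 and Car9, which averaged between 1.42 and 4.22 RPKM. Car4 was lowest of the 9 at 0.56 RPKM. Car1 and Car5a, at 0.04 and 0.02 RPKM, lay at the level of at most 3 reads per library.

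**Figure D1:**
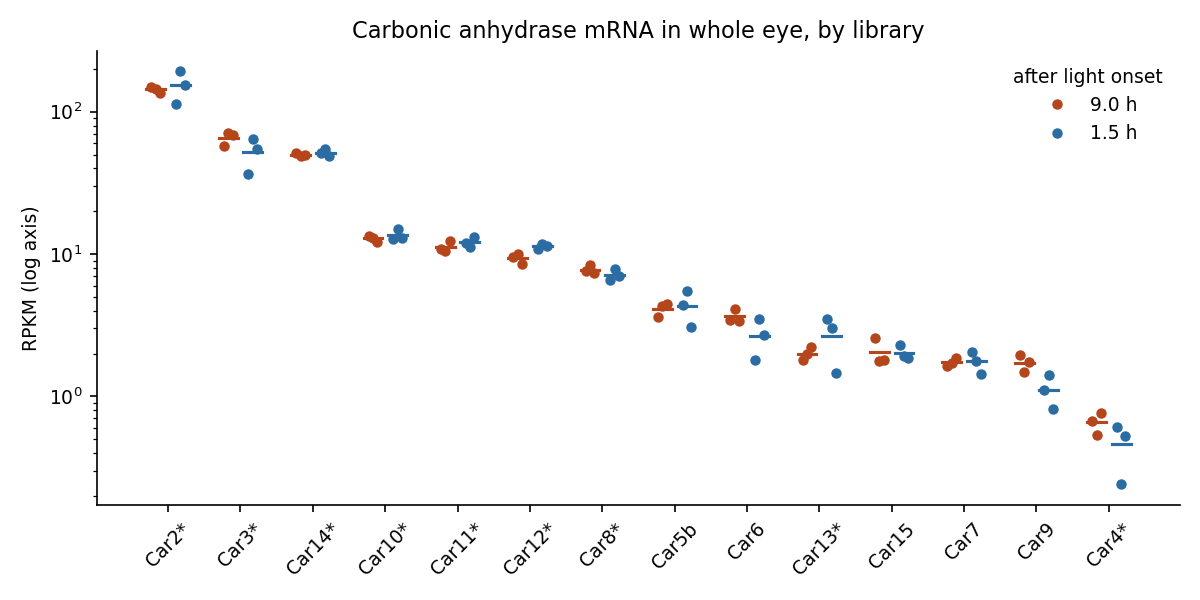
RPKM on a log axis of 14 carbonic anhydrase genes in each of the 6 libraries, with 9.0 h left of 1.5 h for each gene, bars at the mean of 3 libraries and asterisks on the 9 genes studied. Car2, Car3 and Car14 stand above the rest. Only Car12 and Car9 have no overlap between the times, as is the case for 18.2% of all tested genes. Car1 and Car5a, listed at 0 in some libraries, are left out.

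Car2, the fast cytosolic enzyme of Mueller glia, ciliary epithelium and red cells, had 150.1, 145.4 and 135.8 RPKM at 9.0 h, against 112.8, 192.1 and 153.8 RPKM at 1.5 h. The 9.0 h libraries all lay inside the range of the 1.5 h libraries. Its mean was 143.8 ± 7.29 RPKM at 9.0 h and 152.9 ± 39.7 RPKM at 1.5 h (SD, n = 3 each). The log2 fold change was -0.06, with a 95% interval of -0.48 to 0.37 (limma adjusted p = 0.942). The relative SD was 5.07% at 9.0 h and 26.0% at 1.5 h. Counting error for its roughly 4800 to 12000 reads per library was at most 1.44%, so the spread at 1.5 h was larger than counting error. The direction rested on single libraries: the log2 fold change was -0.26 without 1.5 h replicate 1 and 0.13 without 1.5 h replicate 2 (limma adjusted p = 0.35 and 0.817).

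Markers of cell types known to express Car2 were summed in each library and read beside it. Mueller glia markers, led by Dkk3 and Vim, summed to 1040 to 1071 RPKM at 9.0 h and 960.9 to 1108 RPKM at 1.5 h, with the same lowest and highest 1.5 h libraries as Car2. The range of that sum was narrower than that of Car2. The Mueller glia marker Glul, named after its values were seen, ran the other way, with 299.6, 214.5 and 180.7 RPKM at 1.5 h. Among the 1.5 h libraries, the other markers on that list were lowest in replicate 1. Blood markers, led by Beta-s and Alas2, summed to 85.6 to 120.3 RPKM at 9.0 h and 43.8 to 374.8 RPKM at 1.5 h. The blood sum was highest in 1.5 h replicate 3, where Car2 was in the middle of its range. Of the 8 blood markers, Hbb-b1, Hbb-b2, Hba-a1 and Hba-a2 were listed at 0 in every library. The part of these tissues in the Car2 level was not tested.

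Car3, a cytosolic enzyme of low activity that is abundant in skeletal muscle and fat, had 57.4, 71.1 and 68.7 RPKM at 9.0 h, against 36.7, 63.9 and 55.1 RPKM at 1.5 h. The times overlapped, since 1.5 h replicate 2 lay above 9.0 h replicate 1. The log2 fold change was 0.37 ± 0.20 SE, with a 95% interval of -0.07 to 0.82 (limma adjusted p = 0.547). It was the largest positive value among the 8 tested members. Without 1.5 h replicate 1 it was 0.14 (limma adjusted p = 0.636). Without 1.5 h replicate 2 it was 0.54, with a 95% interval of 0.14 to 0.94 (limma unadjusted p = 0.0132, adjusted p = 0.268).

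Markers of skeletal muscle, which comes with the attached eye muscles, were lowest in the same library as Car3. The 16 markers, led by Acta1 and Mb, summed to 2150, 2367 and 2439 RPKM at 9.0 h and to 1284, 2397 and 2030 RPKM at 1.5 h, and none was at 0 throughout. Of these 16 tested genes 1 was called higher and 0 lower, 12 had positive and 4 negative log2 fold changes, and the median was 0.43. The called gene, named after its value was seen, was the sarcomere protein gene Tcap at 1.31 (limma adjusted p = 0.0224), and the myoglobin gene Mb was negative at -0.23 (limma adjusted p = 0.774). The median was 0.15 without 1.5 h replicate 1, with 2 called higher, Acta1 and Tcap, and 1 lower, Mb. That fit called 9.23% of all tested genes. Tcap was not called without 1.5 h replicate 3 or any 1 of the 9.0 h libraries, or after median-of-ratios scaling (limma adjusted p = 0.0505 to 0.247). Expressed as a percentage of the muscle sum, Car3 was 2.67, 3.005 and 2.82 at 9.0 h, against 2.86, 2.67 and 2.72 at 1.5 h. These shares overlapped between the times, and their range was far narrower than that of Car3 itself. Adipose markers, led by Fabp4 and Cfd, summed to 10.7, 21.4 and 11.1 RPKM at 9.0 h, against 6.49, 20.2 and 31.7 RPKM at 1.5 h. They too were lowest in 1.5 h replicate 1. At 9.0 h the adipose sum had the library order of Car3, and the muscle sum did not. At 1.5 h the muscle sum had the library order of Car3, and the adipose sum did not. The share of each tissue in the Car3 level was not tested.

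**Figure D2:**
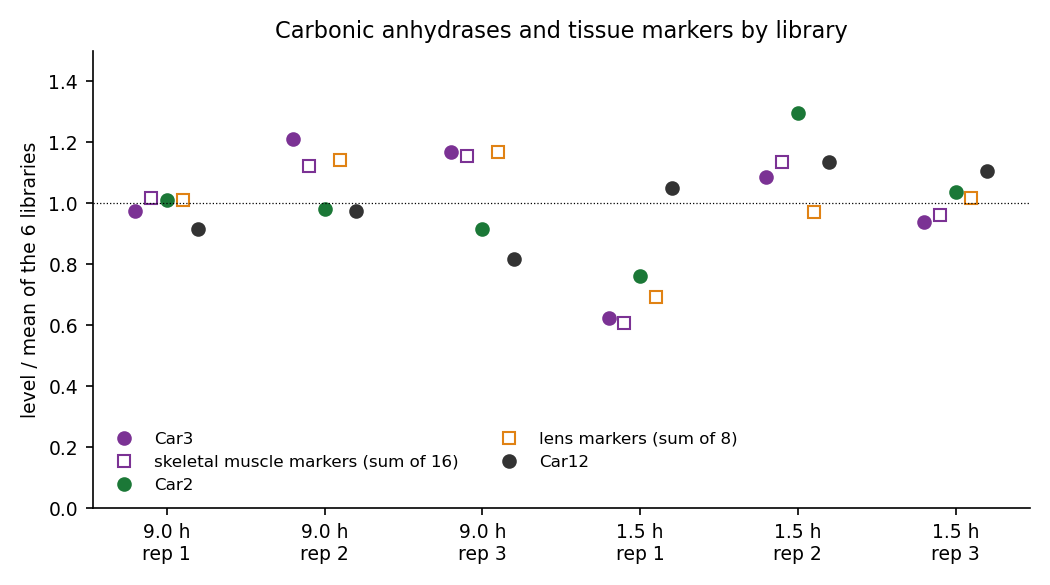
Level of Car3, Car2 and Car12 (filled circles) and summed RPKM of 16 skeletal muscle and 8 lens markers (open squares) in each library, each divided by its own mean over the 6 libraries. Car3 and the muscle sum stay close in every library and are both lowest in 1.5 h replicate 1, while Car12 lies above its mean in all 1.5 h libraries and below it in all 9.0 h libraries.

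Car2 and Car3 lie next to each other on chromosome 3, in a cluster whose order in GENCODE M21 is Car13, Car1, Car3 and Car2. Their ratio within a library, which no scaling between libraries can change, was computed after their values had been seen. Car3 was 0.38, 0.49 and 0.51 of Car2 at 9.0 h, against 0.33, 0.33 and 0.36 at 1.5 h. The times did not overlap in this ratio, although they overlapped for each of the genes alone. Of all tested genes taken singly, 18.2% had no overlap. The share among ratios of other gene pairs was not computed, so no difference between the times is drawn from this ratio. Neighbouring genes of the cluster differed widely in level, with Car13 at 2.34 RPKM and Car1, an enzyme of red cells, at 0.04 RPKM.

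Car13, a cytosolic enzyme, had 1.80, 1.97 and 2.22 RPKM at 9.0 h, against 3.52, 3.04 and 1.47 RPKM at 1.5 h. The 9.0 h libraries lay between the lowest 1.5 h library, replicate 3, and the other two. The log2 fold change was -0.32, with a 95% interval of -0.94 to 0.30 (limma adjusted p = 0.735), the widest interval among the 8 tested members. Its lowest library had about 44 reads, for a counting error of 15.1%. The relative SD was 10.5% at 9.0 h and 40.1% at 1.5 h. Without 1.5 h replicate 3 the log2 fold change was -0.69 (limma unadjusted p = 0.00617, adjusted p = 0.32), and without 1.5 h replicate 1 it was -0.08 (limma adjusted p = 0.845).

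Among the membrane-anchored enzymes, Car12 separated the times and Car14 did not. Car12, a transmembrane enzyme with its active site outside the cell, had 9.46, 10.09 and 8.45 RPKM at 9.0 h, against 10.85, 11.74 and 11.42 RPKM at 1.5 h. Every 9.0 h library lay below every 1.5 h library. It averaged 9.33 ± 0.83 RPKM at 9.0 h and 11.34 ± 0.45 RPKM at 1.5 h (SD, n = 3 each). The log2 fold change was -0.28 ± 0.14 SE, with a 95% interval of -0.58 to 0.02, and it did not pass (limma adjusted p = 0.488). Of all tested genes 18.2% had no overlap between the times, and 8.41% had none and were lower at 9.0 h, so a single such gene among 8 is near the background. Its log2 fold change lay between -0.34 and -0.21 in all 12 alternative settings, with adjusted p from 0.228 to 0.975.

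Car14, a transmembrane enzyme of Mueller glia and pigment epithelium in the mouse, had the lowest relative SD of the 9 members at 9.0 h. It had 51.5, 49.2 and 49.5 RPKM at 9.0 h, against 51.2, 54.4 and 48.9 RPKM at 1.5 h. The libraries of the 2 times were interleaved, and the relative SD was 2.47% at 9.0 h and 5.37% at 1.5 h. The log2 fold change was -0.04, and its 95% interval corresponded to 0.80-fold to 1.18-fold (limma adjusted p = 0.938). Leaving out 1.5 h replicate 3 gave -0.08 and leaving out 1.5 h replicate 2 gave -0.00018 (limma adjusted p = 0.916 and 0.999). Expressed as a percentage of Car14, Car12 was 18.4, 20.5 and 17.1 at 9.0 h, against 21.2, 21.6 and 23.4 at 1.5 h, with no overlap. This ratio was chosen after the values had been seen, and the share of other gene pairs without overlap was not computed. In GENCODE M21, exons of Car14 and of Aph1a, a gamma-secretase subunit on the opposite strand, share 445 bases, and the strand setting of the counting is not given. Aph1a averaged 2.45 RPKM at 9.0 h and 1.36 RPKM at 1.5 h, which is small beside Car14. It was named for this overlap. Its log2 fold change of 0.85 was called only without 1.5 h replicate 1, at 1.14 (limma adjusted p = 0.241 and 9.434e-06). That fit called 9.23% of all tested genes.

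Car4, an enzyme held to the outer cell surface by a lipid anchor and known from the capillaries of the choroid, had 0.68, 0.53 and 0.77 RPKM at 9.0 h, against 0.61, 0.24 and 0.53 RPKM at 1.5 h. The times overlapped. An exact two-sided permutation test of its means gave p = 0.2, where 3 libraries against 3 cannot go below 0.1. The values rest on about 6 to 42 reads per library, and the library with the fewest had a counting error of 40.8%. Endothelial markers, led by Cldn5 and Plvap, summed to 89.6 to 107.4 RPKM at 9.0 h and 89.5 to 103.1 RPKM at 1.5 h, and none of the 8 was at 0 throughout.

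The carbonic anhydrase-related proteins, which keep the family's fold without its activity, overlapped between the times. Summed over Car8, Car10 and Car11 they gave 32.0, 31.8 and 31.9 RPKM at 9.0 h, against 31.4, 34.0 and 33.2 RPKM at 1.5 h. Car10, a secreted ligand of neurexins at synapses, had 13.4, 12.98 and 12.2 RPKM at 9.0 h, against 12.8, 15.0 and 12.9 RPKM at 1.5 h. The times overlapped, with a log2 fold change of -0.07 and a 95% interval of 0.77-fold to 1.17-fold (limma adjusted p = 0.884). Leaving out either 1.5 h replicate 1 or 1.5 h replicate 3 gave -0.11 (limma adjusted p = 0.722 and 0.879). Without 1.5 h replicate 2 the Car10 value was -0.00086 (limma adjusted p = 0.999). Car8, a protein that binds the inositol trisphosphate receptor, had 7.63, 8.37 and 7.35 RPKM at 9.0 h, against 6.62, 7.86 and 7.06 RPKM at 1.5 h. These libraries overlapped too, with a log2 fold change of 0.12 and a 95% interval of 0.87-fold to 1.35-fold (limma adjusted p = 0.812). It was 0.06 without 1.5 h replicate 1 and 0.18 without 1.5 h replicate 2 (limma adjusted p = 0.862 and 0.688). Markers of inner retinal neurons, led by Nefl and Thy1, summed to 416.7 to 463.3 RPKM at 9.0 h and 432.2 to 455.8 RPKM at 1.5 h.

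Car11, a secreted relative of Car10, had 10.9, 10.4 and 12.3 RPKM at 9.0 h, against 12.0, 11.2 and 13.2 RPKM at 1.5 h. The times overlapped, with a log2 fold change of -0.11 and a 95% interval of 0.75-fold to 1.15-fold (limma adjusted p = 0.819). It was -0.05 without 1.5 h replicate 3 and -0.18 without 9.0 h replicate 3 (limma adjusted p = 0.961 and 0.986). Its neighbour Dbp on chromosome 7 had 77.5, 74.5 and 83.8 RPKM at 9.0 h, against 30.2, 19.8 and 30.7 RPKM at 1.5 h, with no overlap. The Dbp log2 fold change of 1.57 passed (limma adjusted p = 0.0072) and lay far above the upper limit of 0.20 for Car11. It was not called without 9.0 h replicate 1, at 1.58, or 9.0 h replicate 3, at 1.52 (limma adjusted p = 0.11 and 0.187). Their annotated exons do not overlap. Gm129 (Ciart), on chromosome 3 near Car14, likewise had 6.20, 6.15 and 6.60 RPKM at 9.0 h, against 3.04, 2.64 and 2.14 RPKM at 1.5 h. Its log2 fold change of 1.26 passed (limma adjusted p = 0.0152), against an upper limit of 0.24 for Car14. It was not called without 1.5 h replicate 3 or any 1 of the 9.0 h libraries (limma adjusted p = 0.0675 to 0.269). The differences within these pairs of genes were not tested as such.

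**Figure D3:**
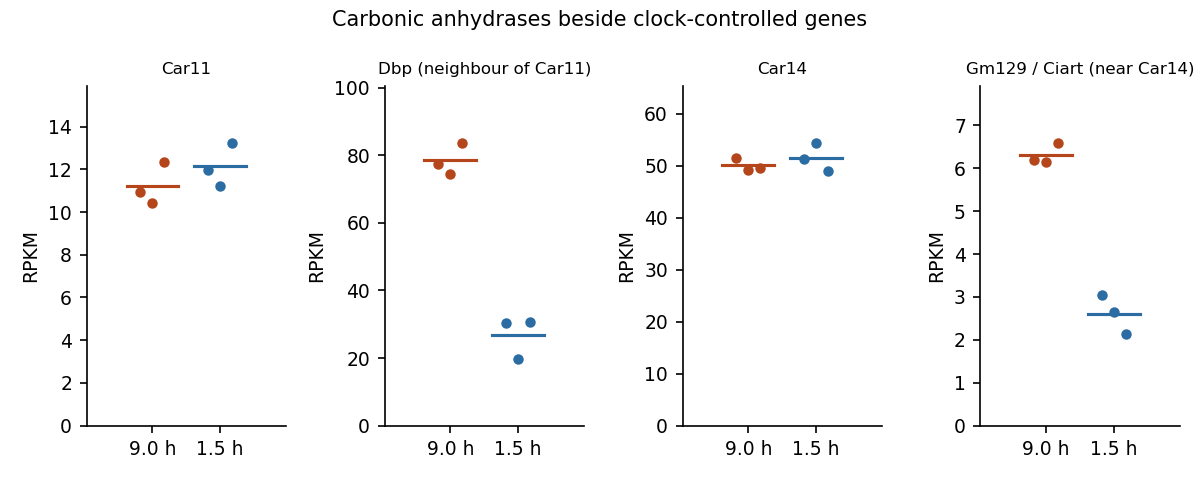
RPKM of Car11 and its neighbour Dbp and of Car14 and nearby Gm129 (Ciart) in each library, 9.0 h left of 1.5 h, with bars at the mean of 3 libraries and axes from 0. Dbp and Gm129 are higher in all 9.0 h libraries, while Car11 and Car14 overlap between the times.

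Of the other 7 carbonic anhydrases, 5 were tested and 0 were called. Car9, a transmembrane enzyme known for its induction by low oxygen, had 1.94, 1.49 and 1.76 RPKM at 9.0 h, against 1.11, 1.40 and 0.82 RPKM at 1.5 h. Every 9.0 h library lay above every 1.5 h library, as in 9.78% of all tested genes. The log2 fold change was 0.62 ± 0.22 SE, with a 95% interval of 0.12 to 1.11 (limma unadjusted p = 0.0192, adjusted p = 0.345). The interval included 0 without 1.5 h replicate 3, at 0.43, without 9.0 h replicate 1, at 0.53, and without 9.0 h replicate 3, at 0.60 (limma unadjusted p = 0.0793, 0.0799 and 0.0604). It was 0.63 without 1.5 h replicate 1 (limma adjusted p = 0.0512). Its lowest library had about 25 reads, and exons of an antisense gene, Gm12454, overlap it. Car6, a secreted enzyme, had 3.44, 4.14 and 3.36 RPKM at 9.0 h, against 1.81, 3.50 and 2.69 RPKM at 1.5 h. The times overlapped, with a log2 fold change of 0.48 (limma adjusted p = 0.475), which was 0.24 without 1.5 h replicate 1. Without 1.5 h replicate 2 the Car6 value was 0.69 (limma unadjusted p = 0.00521, adjusted p = 0.191). With the replicate block and after quantile normalization, Car6 had limma unadjusted p = 0.0154 and 0.0445 (adjusted p = 0.209 and 0.444).

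The remaining tested genes of the family had values near 0 on the log2 scale. The log2 fold changes were -0.03 for the mitochondrial enzyme Car5b, -0.008 for the cytosolic Car7 and -0.007 for the lipid-anchored Car15 (limma adjusted p = 0.97, 0.994 and 0.994). Car15 shares near-identical exon sequence with the annotated readthrough gene Gm20518, so its level is uncertain. Car1 shares such sequence with the pseudogene Gm5843. No near-identical copy was found for the 9 members except the shared exon of Car14 and Aph1a.

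**Figure D4:**
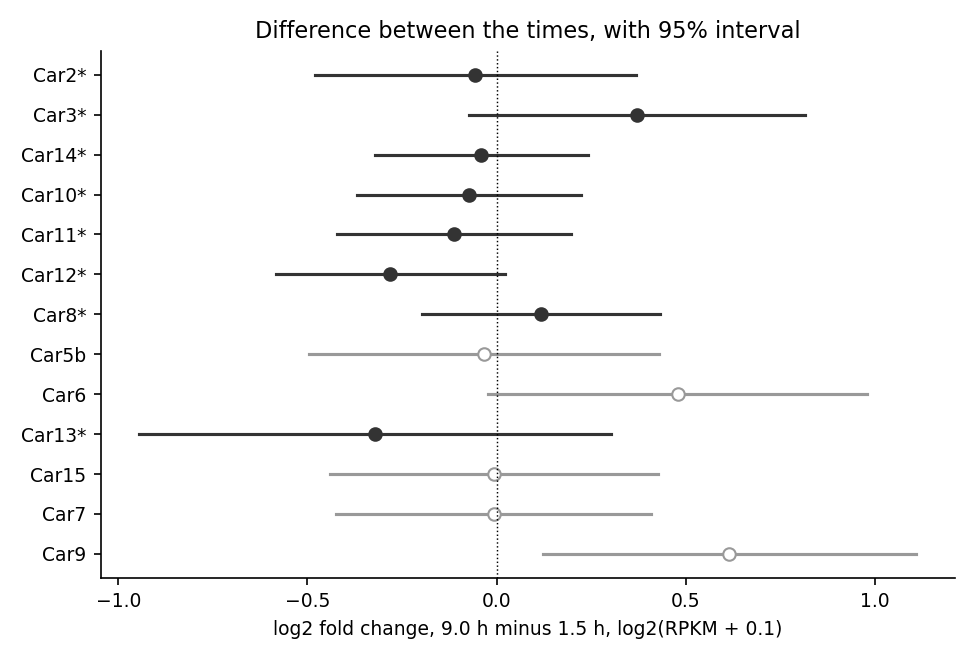
Log2 fold change of the 13 tested carbonic anhydrases, 9.0 h minus 1.5 h, on the log2(RPKM + 0.1) scale, with 95% intervals from limma. Filled points with asterisks are the members and open points the other family genes; every interval but that of Car9 includes 0.

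Genes that work with carbonic anhydrases were read from 3 lists. Of the 15 genes on the bicarbonate transport list, 11 were tested and 0 called. They had 2 positive and 9 negative log2 fold changes and a median of -0.20. Not every gene on it need carry bicarbonate. Slc4a5, a sodium bicarbonate cotransporter and the highest of the list, had 20.6, 19.6 and 18.5 RPKM at 9.0 h, against 26.5, 24.05 and 24.0 RPKM at 1.5 h. Its times did not overlap, with a log2 fold change of -0.34 (limma adjusted p = 0.357). Slc4a2, an anion exchanger, overlapped between the times at -0.05 (limma adjusted p = 0.94). Of the 11 tested, 4 were lower at 9.0 h without overlap, against 8.41% of all tested genes. The other three, named after their values were seen, were Slc4a11 at -0.43, Slc4a10 at -0.40 and Slc26a7 at -0.43 (limma adjusted p = 0.248, 0.397 and 0.378). Slc26a7 was called without 1.5 h replicate 1, at -0.52 (limma adjusted p = 0.0381), in a fit that called 9.23% of all tested genes.

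Of 11 proton and lactate transport genes, 8 were tested and 0 called, with a median log2 fold change of 0.18. Bsg, the partner that brings lactate transporters to the membrane, averaged 528.1 RPKM at 9.0 h and 428.1 RPKM at 1.5 h. The times did not overlap, with a log2 fold change of 0.30 (limma adjusted p = 0.483). Of all tested genes 9.78% were higher at 9.0 h without overlap. After quantile normalization Bsg had only 0.05 (limma adjusted p = 0.93), and the list median was 0.06. Slc16a1, a lactate transporter, had -0.12 (limma adjusted p = 0.883). Of 12 fluid secretion genes, 11 were tested and 0 called, with a median of 0.007. Aqp5, a water channel of the corneal epithelium and lens, averaged 475.1 RPKM at 9.0 h and 329.5 RPKM at 1.5 h with no overlap, at 0.52 (limma adjusted p = 0.286). Without 1.5 h replicate 1, in a fit that called 9.23% of all tested genes, Aqp5 was called at 0.57 (limma adjusted p = 0.0183). The water channel gene Aqp4, named after its value was seen, was called lower there. Atp1b2, a sodium pump subunit, had -0.003 (limma adjusted p = 0.997).

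**Figure D5:**
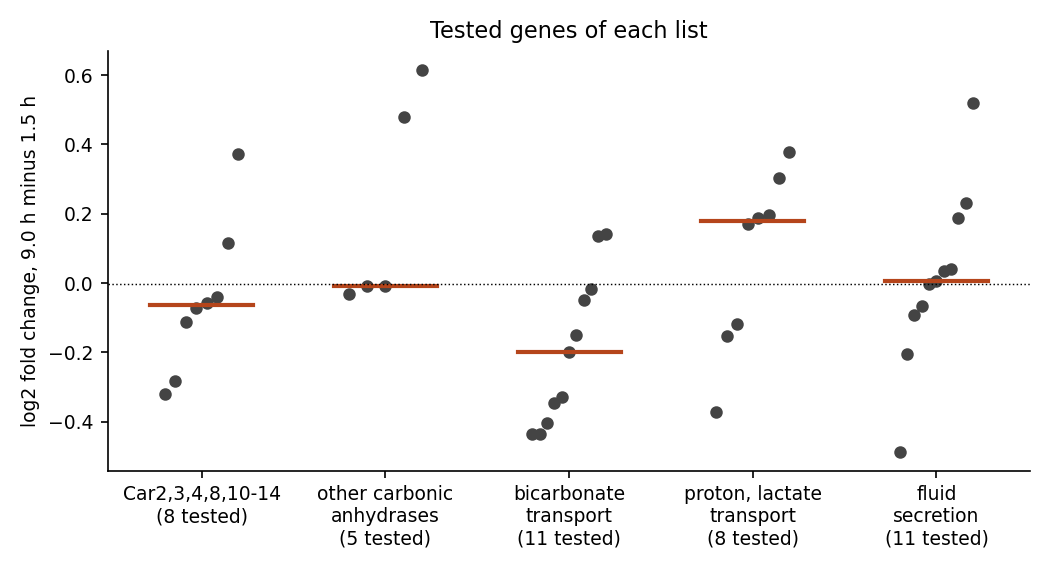
Log2 fold change, 9.0 h minus 1.5 h, of each tested gene in the carbonic anhydrase groups and in the lists for bicarbonate transport, proton and lactate transport and fluid secretion. Orange bars are list medians and the dotted line the median of all tested genes. None of the points was called, and 9 of the 11 tested genes on the bicarbonate transport list lie below 0.

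Among the 4 most abundant members, the genes with the most similar library pattern differed from one member to the next. Likeness was Pearson's r of log2(RPKM + 0.1) over the 6 libraries, searched in 8978 tested genes with a mean of at least 5 RPKM, and the points share library and depth. For Car3 these were Itgb1bp1, Npm1 and the fast muscle myosin gene Myh4, with r = 0.996, 0.991 and 0.990. For Car2 they were Slc30a9, Lsm14a and Plekhb1, with r = 0.994, 0.992 and 0.990. For Car14 they were Mettl2, Elp2 and Fam114a2 (0.987, 0.984 and 0.980), and for Car10 Amacr, Klraq1 and Erlin2 (0.998, 0.998 and 0.993). With 6 points, many genes reach such values: r was above 0.9 for 461 genes with Car2, 263 with Car3, 186 with Car10 and 57 with Car14.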

How the data were processed

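The members and gene lists were chosen with earlier results of these data known. The authors deposited 1 table per library in RPKM, a unit taken from the values, since the file headers name only the sample. GSNAP, HTSeq and build mm9 are named in the submitters' processing notes; versions, annotation, strand setting and the handling of multiply mapped reads were not given in the sources used here. Reads per library were estimated from the step between low RPKM values in genes with 1 GENCODE M21 transcript: 68.5% to 71.7% of these came within 0.1 of a whole read, and at most 13.3% at other steps. Read numbers of single genes use GENCODE lengths and are approximate, and counting errors cover counting only.

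RPKM values were tested with limma 3.58.1 in R 4.3.3 (eBayes, trend, robust) on log2(RPKM + 0.1), two-sided, after the filter given above; this scale understates changes of low genes. The fit was tested on simulated data. Near-identical copies were found with minimap2 2.31 (at least 200 nt at 95% identity). A planned protein alignment was not made. The genes named were the 9 members, the other family genes and the top 2 of each list. Added to these were the 3 genes most like each of the 4 highest members. For others the text says that they were picked with values known, or gives the overlapping or shared sequence for which they are named. Alternatives were pseudocounts of 0.01 and 1, no filter, quantile normalization, median-of-ratios scaling, a replicate block and leaving out each library.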

Additional observations from a re-analysis of the deposited data

How the results depend on the processing

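No member was called in any of the 12 alternative settings, and 7 of the 8 tested members kept their direction in all of them. The exception was Car2, whose log2 fold change ranged from -0.26 to 0.13 when 1 library was left out. Car14 and Car10 kept theirs only barely, at -0.00018 and -0.00086 without 1.5 h replicate 2. The same omissions gave ranges of -0.25 to 0.16 for Car5b, -0.14 to 0.11 for Car7 and -0.17 to 0.083 for Car15. After quantile normalization these 3 genes turned positive, at 0.018, 0.065 and 0.052. Outside the family, the omissions gave -0.19 to 0.076 for Slc4a2, -0.38 to 0.069 for Slc16a1 and -0.10 to 0.068 for Atp1b2, which was 0.0039 with median-of-ratios scaling. Over all tested genes, 20 were called higher and 10 lower. The numbers were 10 and 6 after quantile normalization and 9 and 6 with median-of-ratios scaling, and 6 were lower at a pseudocount of 0.01. Leaving out 1 library gave 0 to 669 higher and 2 to 576 lower, with none higher without 9.0 h replicate 3 and the highest numbers without 1.5 h replicate 1. The cause was not tested. With the replicate number as a block, 87 were called higher and 54 lower. Same-numbered libraries correlated in their deviations from the group means with r = 0.35, 0.48 and -0.21, and differently numbered ones with -0.54 to 0.225. With 3 libraries per time these values depend on each other, so they do not settle whether the numbers pair the libraries. With the block, Car3 had limma unadjusted p = 0.0276 and adjusted p = 0.267. Depth limits the precision of Car4, Car9, Car13 and Car15, with fewer than 50 reads in their lowest libraries.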
